A study of Drosophila melanogaster with 6 samples.

Results

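The Turandot genes TotA, TotC and TotM code for small secreted stress proteins of Drosophila melanogaster. They were chosen as the members of the Turandot family with enough reads to measure, and are 3 of 17753 genes in the count table and 3 of the 8 Turandot genes listed there. The libraries came from male flies with RNAi to Ugt35b, a gene of the UDP-glycosyltransferase family. It was switched on in glia by Repo-GS, a GeneSwitch driver that is active when the flies receive RU486. The RU486 group received the drug and the EtOH group only ethanol, its solvent; both groups carried driver and RNAi and both were taken at day 10. There were 3 libraries per group, each from 10 flies. The sample labels give the tissue as head and the extraction text names brains. Flies given RU486 in the absence of the RNAi were not analysed here, so an effect of the drug and one of the knockdown cannot be told apart.

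Turandot proteins are released into the hemolymph, mainly by the fat body, after infection, heat, wounding, drying and other stresses, and they have been described as shielding host cells from the fly's own antimicrobial peptides. Induction of TotA is known to run through JAK/STAT: the Unpaired cytokines bind the receptor Domeless, the kinase Hopscotch activates the factor Stat92E, and Socs36E feeds back on the pathway. The Mekk1 branch of stress kinase signalling and the NF-kappaB factor Relish are known as further inputs.

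Library totals ranged from 10156909 to 10633167 counts in RU486 and from 11689966 to 12636787 in EtOH. Nothing in the labels places the 3 libraries of either group in different cultures, so the p-values reflect only how these libraries vary, and that variation may be technical. Ugt35B1, the table's symbol for the target, fell to 97.9 ± 12.6 CPM (counts per 1000000, SD, n = 3) in RU486, against 143 ± 5.47 CPM in EtOH (edgeR quasi-likelihood test, adjusted p = 0.00865). Marker genes of the eye summed to between 64195 and 68058 CPM in RU486 and between 67089 and 78966 CPM in EtOH, and those of muscle to between 4089 and 4387 CPM and between 3880 and 4683 CPM in the same order, so eye and muscle transcripts were present in every library. Of 9 neuronal markers, Syx1A, which lies inside another gene, had no count and elav had 6 counts summed over RU486 and 6 over EtOH, while the other 7 were tested and did not pass the test. One library of each group stood apart over all genes, RU486 replicate 2 with high digestive transcripts and EtOH replicate 2, and results are given below with and without them where this matters.

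All 3 Turandot transcripts were higher in every RU486 library than in any EtOH library, a separation shared by 13.9% of all genes tested. TotM passed the test at 5.20-fold, whereas TotA at 2.88-fold and TotC at 3.78-fold did not. The call of TotM depended on which libraries were kept and was lost in 3 of the 6 fits with a library left out. The libraries varied most in the EtOH group, where EtOH replicate 2 held far fewer Turandot reads than the others.

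TotA (FBgn0028396, chromosome 3R, 20871036 to 20871700, plus strand, build BDGP6), the best studied Turandot gene, was the most abundant of the family. Its level was 508, 269.7 and 311 CPM in RU486 replicates 1 to 3, against 132, 46.7 and 199 CPM in EtOH replicates 1 to 3. RU486 replicate 1 was thus the highest and EtOH replicate 2 the lowest, and the groups did not overlap, although the lowest RU486 library was only 1.35 times the highest EtOH library. TotA averaged 363 ± 127 CPM in RU486 and 126 ± 76.5 CPM in EtOH (SD, n = 3 each). The log2 fold change of 1.52 (SE 0.45) had an adjusted p of 0.0756 in edgeR's quasi-likelihood test and did not pass. By CPM, TotA was the 343rd, 816th and 680th most abundant gene of the table in RU486 replicates 1 to 3, against 1683rd, 3738th and 1079th in EtOH replicates 1 to 3.

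TotC (FBgn0044812, chromosome 3R, 20872988 to 20873580, plus strand), a paralog that starts 1287 bases downstream of the end of TotA, followed the same order of libraries. Its level was 158, 62.8 and 71.8 CPM in RU486 replicates 1 to 3, against 25.8, 3.33 and 47.7 CPM in EtOH replicates 1 to 3. Again RU486 replicate 1 was highest and EtOH replicate 2 lowest, with no overlap and a ratio of 1.32 between the nearest libraries of the groups. TotC averaged 97.4 ± 52.4 CPM in RU486 and 25.6 ± 22.2 CPM in EtOH. Its log2 fold change was 1.92 (SE 0.68), with an adjusted p of 0.136 in edgeR's quasi-likelihood test, and it did not pass. TotC is a close relative of TotA, and how the counting treated reads shared by paralogs is not given in the sources used here, so part of the reads of either gene may belong to the other.

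TotM (FBgn0031701, chromosome 2L, 5329857 to 5330464, plus strand) lies on another chromosome and was the least abundant member. Its level was 42.1, 22.1 and 16.7 CPM in RU486 replicates 1 to 3, against 8.27, 1.11 and 6.04 CPM in EtOH replicates 1 to 3, where the lowest library held 13 reads. The groups stood farther apart than for the paralogs, with the lowest RU486 library at 2.03 times the highest EtOH library. TotM averaged 27.0 ± 13.3 CPM in RU486 and 5.14 ± 3.66 CPM in EtOH, a log2 fold change of 2.38 (SE 0.54) with an adjusted p of 0.0303 in edgeR's quasi-likelihood test. TotM no longer passed when EtOH replicate 1 was removed (log2 fold change 2.88, edgeR, adjusted p = 0.0682), nor on removal of EtOH replicate 3 (2.51, 0.144) or of RU486 replicate 1 (1.93, 0.101), nor under a robust prior (2.38, 0.178).

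**Figure D1:**
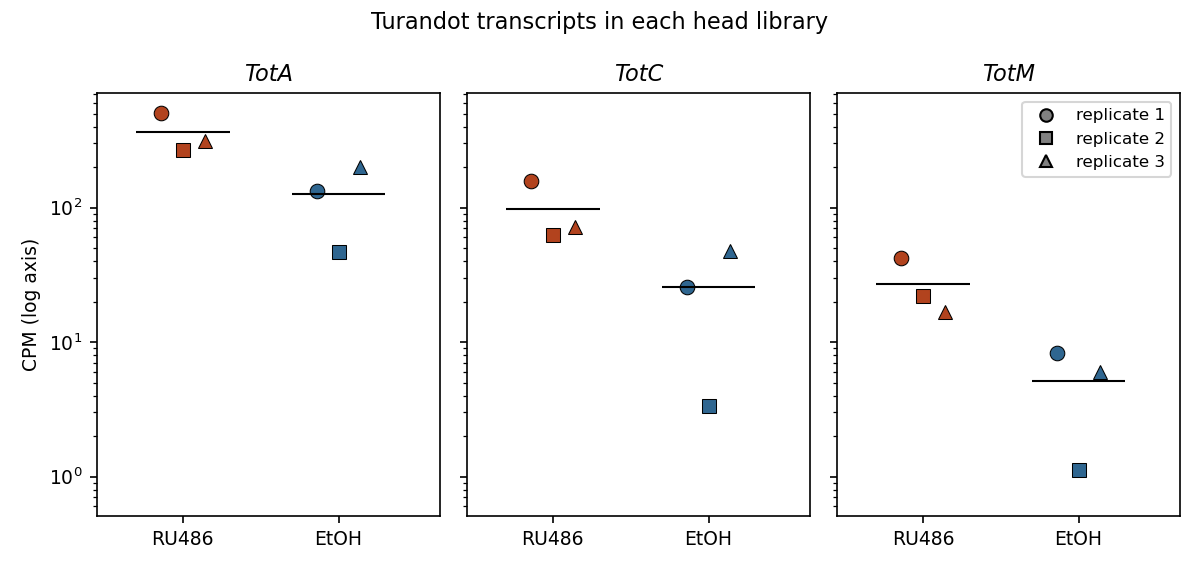
CPM (log axis) of TotA, TotC and TotM in each library, with RU486 left of EtOH, the marker shape giving the replicate and the black line the group mean. In each panel the 3 RU486 libraries lie above the 3 EtOH libraries, and EtOH replicate 2 is the lowest point, at 46.7, 3.33 and 1.11 CPM.

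These calls stand against a wide background. Of 8945 genes tested, 683 or 7.64% were called at an adjusted p under 0.05, 4.36% higher and 3.28% lower in RU486, and leaving out single libraries moved the number: to 341, 399 and 1441 on removal of EtOH replicate 3, 1 and 2, and to 402 and 440 on removal of RU486 replicate 3 and 2. Every RU486 library lay above every EtOH library for 13.9% of the genes tested, so the separation of the groups in the 3 members is common in this table. By size the members ranked higher, with 73 tested genes above TotM, 98 above TotC and 127 above TotA in log2 fold change. By p-value they ranked lower, with 501, 932 and 1368 genes ahead of TotM, TotA and TotC. Each log2 fold change was well above the median of 0.00 over all genes tested.

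**Figure D2:**
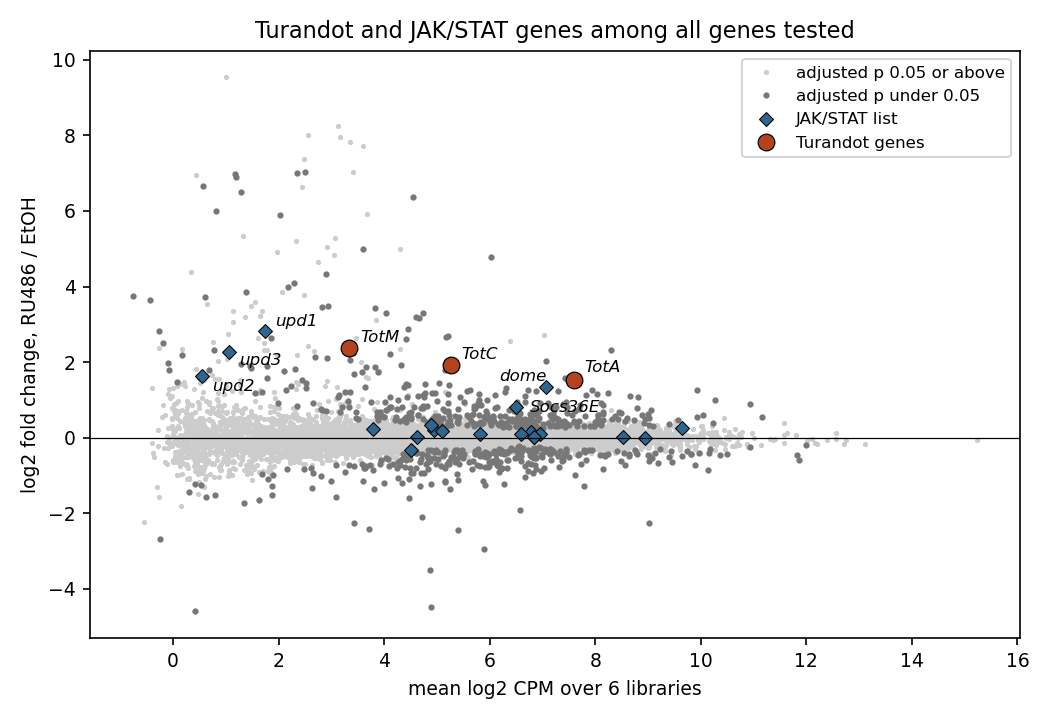
Log2 fold change of RU486 over EtOH against the mean log2 CPM over 6 libraries for the 8945 genes tested, with dark grey points for an adjusted p under 0.05, red circles for the Turandot genes and blue diamonds for the JAK/STAT list. TotM, TotC and TotA lie at 2.38, 1.92 and 1.52, above most genes of like abundance.

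Within groups the libraries were spread more widely for these genes than for most, in EtOH largely through replicate 2. The genes compared were not matched for read depth. Among 8447 genes whose log2 CPM averaged 1 or more, with 0.5 added to each count, the highest RU486 library was 1.14 times the lowest for the median gene, and the highest EtOH library 1.19 times the lowest. In RU486 this ratio was 1.88 for TotA, 2.51 for TotC and 2.51 for TotM, with 278, 133 and 135 genes spread more widely. In EtOH it was 4.26 for TotA, 14.1 for TotC and 7.20 for TotM, and only 36, 17 and 25 of the 8447 genes were spread more widely. Apart from EtOH replicate 2, the EtOH libraries differed by a factor of 1.51 for TotA, 1.84 for TotC and 1.37 for TotM. Against the mean of EtOH replicates 1 and 3 alone, RU486 averaged 2.19-fold higher for TotA, 2.65-fold for TotC and 3.77-fold for TotM. In the fit without EtOH replicate 2, TotA passed (log2 fold change 1.13, edgeR, adjusted p = 0.0445), TotM still passed (1.91, 0.0217) and TotC did not (1.40, 0.0797). That fit called 1441 of 9085 genes tested, against 683 of 8945 with all libraries, so calls rose throughout the table.

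**Figure D3:**
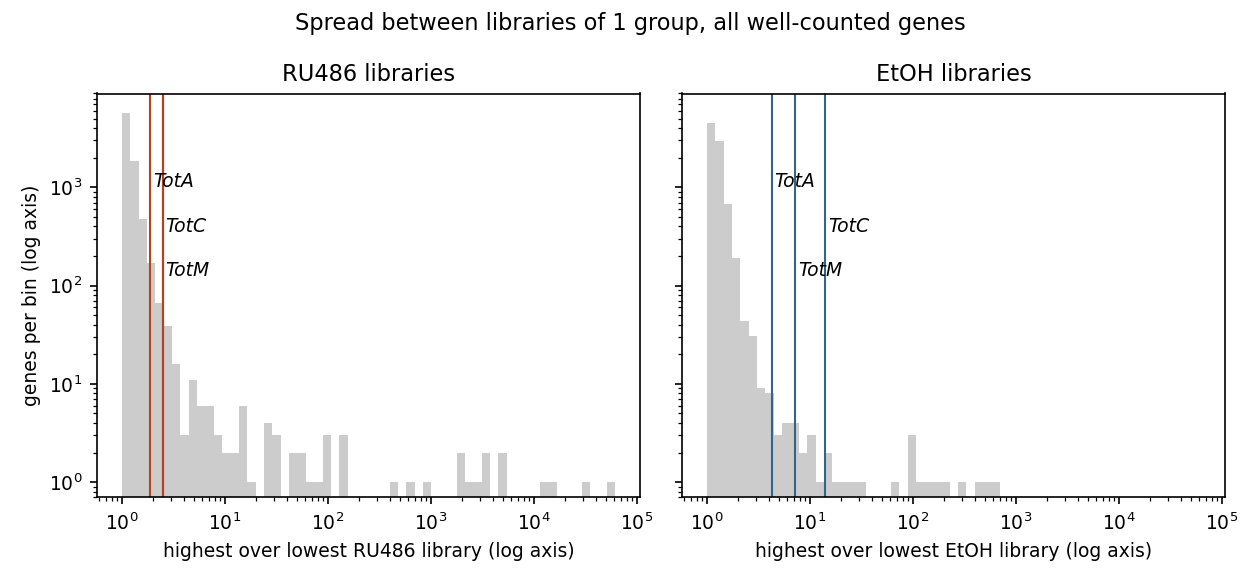
Number of genes (log axis) by the ratio of the highest to the lowest library of a group (log axis, 0.5 added to each count), for RU486 on the left and EtOH on the right, over the 8447 genes whose log2 CPM averaged 1 or more. Vertical lines mark the Turandot genes, at 1.88 to 2.51 in RU486 and at 4.26 to 14.1, in the far tail, in EtOH.

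Across the settings tried, the sign never changed for any member and the call did. With all 6 libraries and no term for the replicate number, TotM passed at each library scaling, each filter, the DESeq2 Wald test (adjusted p = 0.0377) and limma-voom (0.0404), and not with the robust prior. TotA and TotC passed in none of these, with adjusted p-values of 0.0604 for TotA and 0.0915 for TotC in limma-voom and 0.281 and 0.370 with the robust prior. With each library left out in turn, TotM passed in 3 of 6 fits, TotA in 1 and TotC in 0. With EtOH replicate 2 and RU486 replicate 2 both left out, a setting chosen after seeing the data, TotA (log2 fold change 1.30, adjusted p = 0.00189), TotC (1.64, 0.00574) and TotM (2.04, 0.00270) all passed, and 1394 genes did so in all.

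**Figure D4:**
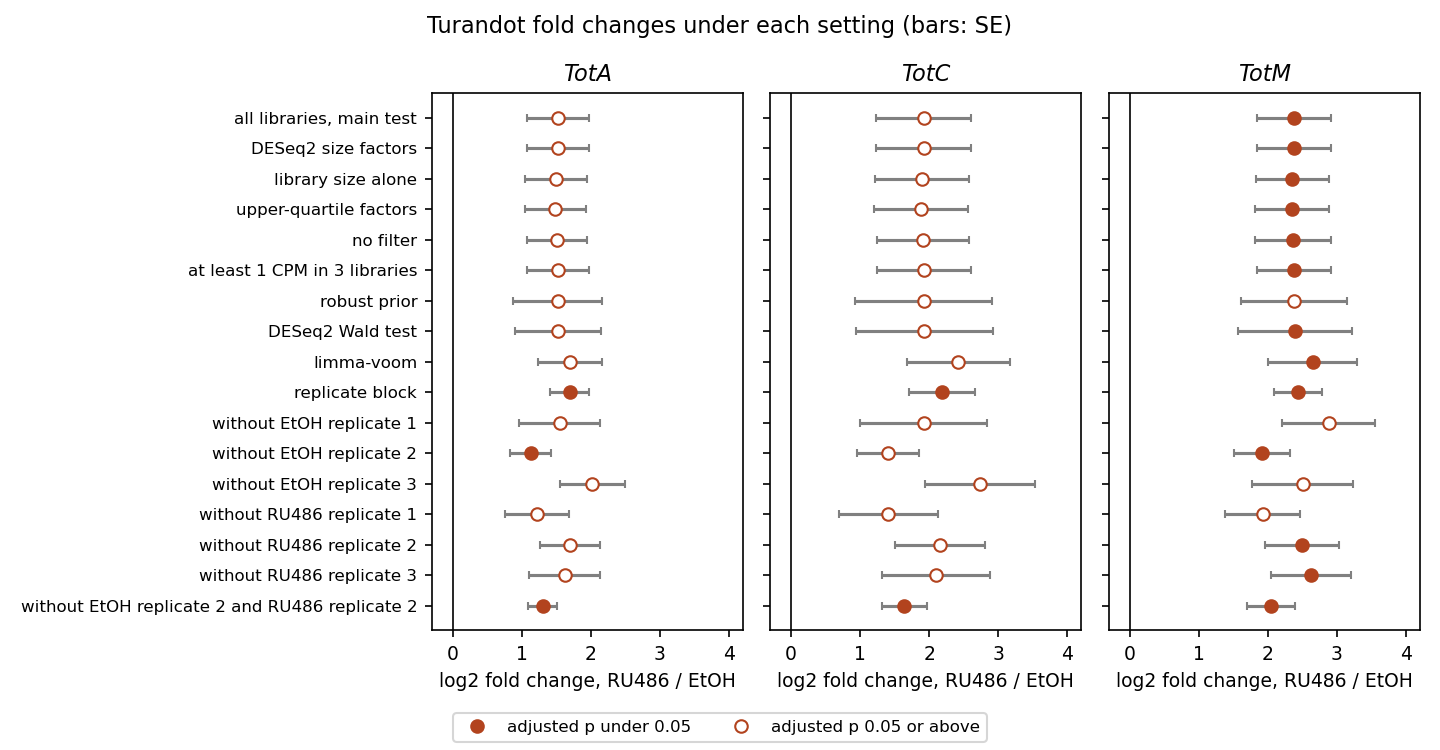
Log2 fold change of RU486 over EtOH for TotA, TotC and TotM under each setting, with bars for the SE and filled points for an adjusted p under 0.05. All points lie right of 0, from 1.13 to 2.02 for TotA, 1.40 to 2.73 for TotC and 1.91 to 2.88 for TotM.

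Summed, the 3 Turandot genes were at 708, 355 and 400 CPM in RU486 replicates 1 to 3, against 166, 51.2 and 253 CPM in EtOH replicates 1 to 3. They took 0.0484 ± 0.0194% of all counts in RU486 and 0.0159 ± 0.0104% in EtOH (SD, n = 3 each). The summed level was higher in RU486 by 1.85 on the log2 scale. That 3 of 3 RU486 libraries lay above all EtOH libraries had to follow, since each member separated the groups in this way. The difference was 1.18 without EtOH replicate 2 and 2.33 without EtOH replicate 3. The two-sided exact permutation test gave p = 0.1, the smallest that 3 libraries against 3 allow. This outcome was fixed by the separation of the members and adds nothing to it.

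Per kilobase of exon, which allows levels to be set side by side between genes, TotA was highest, TotC next and TotM lowest in every library. The levels were 627 ± 220 CPM per kilobase for TotA, 184 ± 98.9 for TotC and 48.8 ± 24.2 for TotM in RU486, and 218 ± 132, 48.3 ± 41.8 and 9.31 ± 6.63 in EtOH (SD, n = 3). TotA made up 75.2 ± 3.12% of the summed Turandot reads in RU486 and 83.2 ± 7.05% in EtOH, and TotM 5.45 ± 1.10% and 3.18 ± 1.56%. EtOH replicate 2 differed in make-up as well as in level: TotC took 6.51% of its 599 Turandot reads (exact 95% binomial interval 4.67 to 8.79%, counting error only), whereas TotC took between 15.5% and 22.3% in the other 5 libraries.

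The ratios between members were not shown to differ between the groups. The count of TotA was 3.22, 4.30 and 4.33 times that of TotC in RU486 replicates 1 to 3, against 5.11, 14.03 and 4.18 times in EtOH replicates 1 to 3. The log2 ratio of TotA to TotC was lower in RU486 by a difference of -0.77 (exact permutation test, two-sided p = 0.3, adjusted over 3 ratios 0.45), and by -0.24 when EtOH replicate 2 was left out. The log2 ratio of TotM to TotA differed by 0.99 (exact p = 0.2, adjusted 0.45), and the ratio of TotM to TotC differed by 0.22 (exact p = 0.8, adjusted 0.8). The last difference moved to -0.24 without EtOH replicate 3, to 0.42 without EtOH replicate 1, to 0.47 without EtOH replicate 2, to 0.05 without RU486 replicate 2 and to 0.35 without RU486 replicate 3. With 3 libraries against 3 these tests cannot go below 0.1, so they do not show that the members moved in step.

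The other 5 Turandot genes gave little or nothing to measure. TotB, 357 bases beyond TotC, had 4, 0 and 2 counts in RU486 replicates 1 to 3, against 2, 0 and 2 in EtOH replicates 1 to 3, and TotZ had 1 count in RU486 replicate 1 and 0 in the other libraries. A count of 0 in a library allows up to 3 counts, or between 0.288 and 0.296 CPM in RU486 and between 0.232 and 0.256 CPM in EtOH. TotE, TotF and TotX had 0 counts in all 6 libraries, but TotE and TotF lie inside the gene sick and TotX inside Grik. Of 1846 protein-coding genes inside another such gene, 1840 had no count in any library, so these 3 were treated as not measured.

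TotA, TotC, TotB and TotZ lie in 1 run of 7328 bases on chromosome 3R, all on the plus strand, with TotX 26553 bases farther on. Within 20 kilobases of that group and of TotM, 14 neighbouring genes were tested, of which 1 was higher and 2 were lower in RU486, against 4.36% higher and 3.28% lower over all genes tested. On 3R, Ktl fell to 142 ± 2.64 CPM in RU486, against 181 ± 14.1 CPM in EtOH (edgeR, adjusted p = 0.0256), a call that held without EtOH replicate 1 or 2 and was lost when any 1 of the other 4 libraries was dropped. Next to TotM, fusl, whose end is 5 bases from that of TotM on the opposite strand, fell with a log2 fold change of -0.44 (SE 0.09, edgeR, adjusted p = 0.0208) and was not called when EtOH replicate 1 (0.0899) or RU486 replicate 3 (0.0746) was dropped. On the same arm vri, a clock transcription factor gene, rose by 0.63 (SE 0.07, edgeR, adjusted p = 0.00093) and was called in all 6 such fits. The largest fold change among the 14 was that of Grik, a glutamate receptor gene around TotX, which was at 64.8 ± 15.3 CPM in RU486 and 34.7 ± 13.8 CPM in EtOH but did not pass (log2 fold change 0.90, edgeR, adjusted p = 0.0741). Whether the count of Grik holds reads of TotX, which was not measured, was not tested.

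Among the genes known to lie upstream of the Turandot genes, 2 of the 3 JAK/STAT ligand genes and the receptor and feedback inhibitor genes rose as well. Of 20 measured genes of the JAK/STAT list 5 rose, 0 fell and 15 did not pass, against the 4.36% of all genes called higher, and the list median was 0.17 against 0.00 over all genes tested. The lists here and below were chosen with earlier results of these data known, so their shares of calls are a description. In the JAK/STAT list the calls depended on the libraries kept. Only 2 were called on removal of EtOH replicate 1, or of RU486 replicate 3, and 3 on removal of EtOH replicate 3, or of RU486 replicate 1, as well as with no filter and with the DESeq2 Wald test. The ligand gene upd1 had 14.2, 9.22 and 9.85 CPM in RU486 replicates 1 to 3, against 1.60, 0 and 3.02 CPM in EtOH replicates 1 to 3 (log2 fold change 2.81, SE 0.63, edgeR, adjusted p = 0.0297). The ligand gene upd3 had 5.02, 3.74 and 4.53 CPM in RU486, against 1.12, 0.256 and 1.32 CPM in EtOH (2.27, SE 0.42, edgeR, adjusted p = 0.0112), and upd2, at 4.82, 2.40 and 1.77 CPM against 0.803, 0 and 2.01 CPM, did not pass (edgeR, adjusted p = 0.242). In each of these ligand genes EtOH replicate 2 was the lowest library and RU486 replicate 1 the highest, as in the 3 Turandot genes.

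The receptor gene dome rose to 215 ± 10.2 CPM in RU486, against 84.6 ± 5.03 CPM in EtOH, and Socs36E to 120.0 ± 7.43 CPM, against 68.9 ± 8.37 CPM (edgeR, adjusted p = 3.48e-05 and 0.0012). Both passed each time 1 of the 6 libraries was dropped. The ligand gene upd3 missed the threshold when EtOH replicate 1 (edgeR, adjusted p = 0.0623) or RU486 replicate 3 (0.0509) was dropped, and upd1 passed in only 2 of these 6 fits, without EtOH replicate 2 or RU486 replicate 2. The fifth call was apt (log2 fold change 0.33, SE 0.08, edgeR, adjusted p = 0.0476), which of the 6 fits passed only in that without EtOH replicate 2. The kinase gene hop (0.08, SE 0.08) and Stat92E (-0.00, SE 0.07) did not pass, and in dome EtOH replicate 2, at 80.2 CPM, was close to the other EtOH libraries at 83.4 and 90.1 CPM. EtOH replicate 2 was thus far below the other EtOH libraries in the Turandot and ligand genes and near them in the receptor gene.

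**Figure D5:**
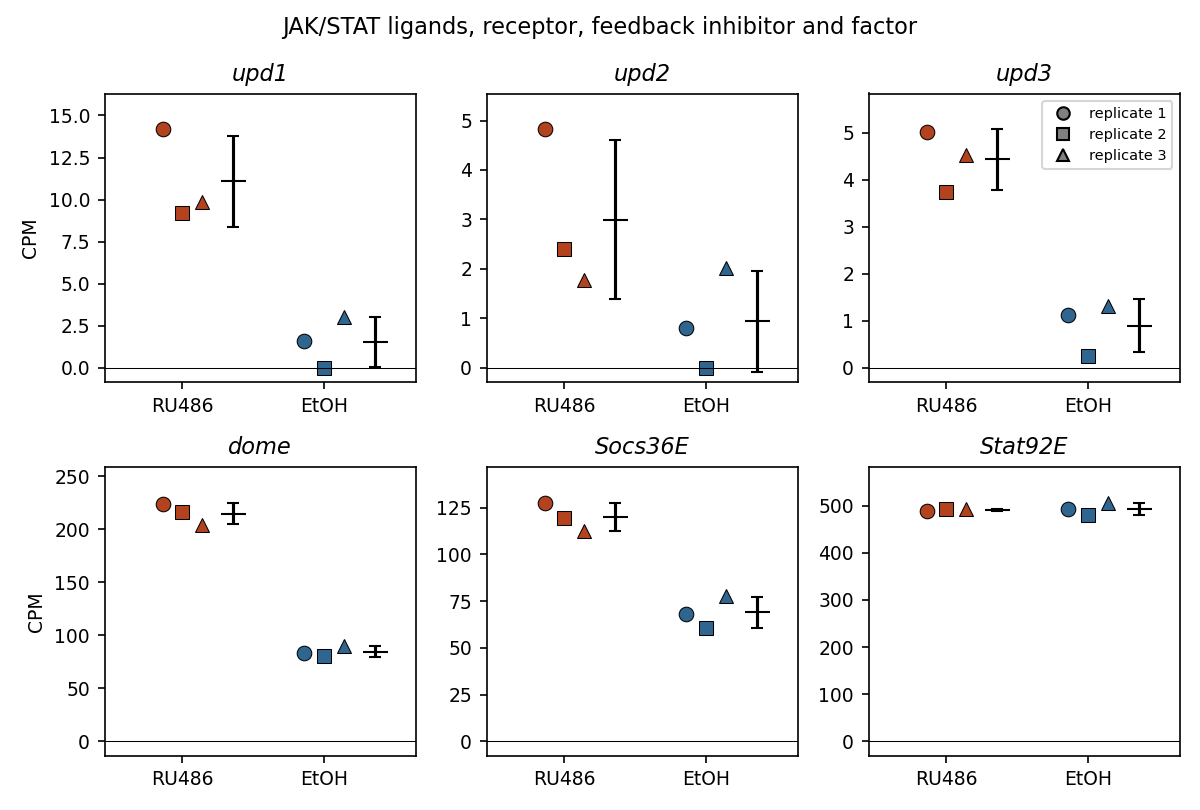
CPM (linear axis from 0) of the ligand genes upd1, upd2 and upd3, the receptor gene dome, the feedback inhibitor Socs36E and the factor Stat92E in each library, with RU486 left of EtOH, points for libraries and black bars for mean ± SD. EtOH replicate 2 is at 0, 0 and 0.256 CPM for the ligand genes, while dome separates the groups at 204 to 224 CPM against 80.2 to 90.1 CPM and Stat92E is alike in both.

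The other stress lists are read against the 7.64% of all genes tested that were called, 4.36% higher and 3.28% lower, and no difference between lists was tested. In the JNK list 5 of 16 measured genes rose and 1 fell, or 37.5% called, with a list median of 0.27. Mmp1, a matrix metalloproteinase gene (1.25, SE 0.11), the ligand gene egr (1.58, SE 0.19) and kay (0.52, SE 0.08) rose and were called whichever library was dropped. The kinase gene bsk, which codes for JNK itself, fell (-0.30, SE 0.07), but of the 6 fits with 1 library dropped it was called only in that without EtOH replicate 2, and on removal of EtOH replicate 1 or 3, or of RU486 replicate 2 or 3, the list held 3 calls. In the Toll list 2 of 12 rose and 1 fell, or 25% called. The ligand gene spz (1.27, SE 0.11) and dl (0.61, SE 0.07) were called in all 6 such fits, and GNBP1 (-0.37, SE 0.08) only in that without EtOH replicate 2. In the Imd list 2 of 11 rose, or 18.2% called. One was pirk (2.22, SE 0.24), an inhibitor of the pathway called in all 6 fits, and the other IKKbeta (0.47, SE 0.09), which was not called on removal of EtOH replicate 1, or of RU486 replicate 1 or 3. Rel, inside another gene, was not measured.

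The p38 and MEKK1, heat shock and oxidative stress lists held shares of calls near that of all genes. Of 10 measured genes of the p38 and MEKK1 list 1 rose, Mekk1 (0.41, SE 0.07, edgeR, adjusted p = 0.00857), which missed the threshold when EtOH replicate 3 was dropped (0.05003). Of 14 heat shock genes 1 rose, or 7.14%, namely DnaJ-1 (0.41, SE 0.07), which missed the threshold without RU486 replicate 3 (edgeR, adjusted p = 0.0515), where the list had 0 calls. Dropping EtOH replicate 1 or 2 gave 2 heat shock calls. Of 17 oxidative stress genes Cat rose (0.35, SE 0.08) and Sod2 fell (-0.32, SE 0.07), or 11.8% called. Dropping EtOH replicate 2 gave 6 oxidative stress calls, and dropping EtOH replicate 3 or any single RU486 library left 0.

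The genes whose levels over the 6 libraries were most like each member, out of 8446 ranked by Pearson correlation of log2 CPM, are given as a description, since with 6 points many genes reach a high value. TotA was most like CG5445 (r = 0.995), TotC (0.993), ver (0.992), Tre1 (0.988) and Rbm13 (0.987). TotC was most like TotA (0.993), CG13708 (0.993), CG5445 (0.992), Tre1 (0.989) and ver (0.985). TotM was most like Aldh-III (0.999), Act42A (0.991), CG9812 (0.990), SPARC (0.988) and Rbm13 (0.987), with TotA in place 53 and TotC in place 72. Apart from the Turandot genes themselves, these neighbours in pattern changed little, with log2 fold changes between 0.12 and 0.61 and none past the test. The ligand gene upd1 came in place 9 for TotA, 10 for TotC and 46 for TotM, and upd3 in place 34, 77 and 48. In the same order, Socs36E came in place 180, 315 and 219, and dome in place 504, 721 and 488.

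Once each group's mean was removed, so that only differences between libraries of the same group counted, BomS1, a Bomanin peptide gene, was the most like TotA (r = 0.999) and in second place for TotC (0.998). BomS1 rose to 182 ± 23.1 CPM in RU486, against 78.0 ± 21.1 CPM in EtOH (edgeR, adjusted p = 0.00396). The other genes named for TotA by this measure were Mer (0.999), CG16721 (0.999), CG11474 (0.998) and TotC. For TotC they were spn-F (0.998), in first place, PolD2 (0.998), CG11474 (0.997) and mRpL19 (0.996). For TotM they were Coq8, CG5653, CG3534, ND-39 and CG31345. None of these other genes passed the edgeR test. Many genes reach a high value on this scale too, and BomS1 was hardly set apart from the next, so the order is a description. By this measure upd1 came in place 105 for TotA, 49 for TotC and 500 for TotM. TotA and TotC kept an r of 0.996 with each other on this scale. TotM reached 0.902 with TotA and 0.923 with TotC, which put it only in place 371 for TotA and 312 for TotC.

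Markers of the cells that the samples could hold were set beside the Turandot levels as sums, with 7.64% of all genes tested called as the background for their counts. Fat body markers summed to between 7899 and 8237 CPM in RU486 and between 7009 and 7628 CPM in EtOH, but of 8 measured members 5 fell, among them Lsp1beta (log2 fold change -3.51) and Obp99b (-4.49), and 1, Tsf1, rose (0.90). The largest part was apolpp, at 5272 ± 171 CPM in RU486 and 5472 ± 500 CPM in EtOH, which did not pass. Tsf1 was at 2671 ± 345 CPM in RU486 and 1430 ± 193 CPM in EtOH, so the excess of the sums in RU486 lay in Tsf1. Lsp1beta, Obp99b and Tsf1 were called whichever library was dropped, and Yp1, Yp2 and Yp3 in 1 such fit of 6. Hemocyte markers summed to between 1110 and 1215 CPM in RU486 and between 917 and 978 CPM in EtOH, with Pxn (1.18) and srp (0.38) higher and PPO2 (-0.73) lower among 9 measured. Without Pxn the sums were between 699 and 748 CPM in RU486 and between 712 and 782 CPM in EtOH, so they overlapped. Pxn was called whichever library was dropped, srp only without EtOH replicate 2, and PPO2 in 3 of the 6 fits, all but those without EtOH replicate 1 or 3 or RU486 replicate 3. Glial markers summed to between 4264 and 4640 CPM in RU486 and between 4337 and 4469 CPM in EtOH, while within the list Gat (-1.92), wrapper (-2.10) and zyd (-0.89) fell and Mdr65 (0.95) and bdl (0.73) rose among 10 measured, and moody and alrm, both inside other genes, had no count. Neuronal markers summed to 5191, 5317 and 5283 CPM in RU486 replicates 1 to 3 and to 4574, 6429 and 5068 CPM in EtOH replicates 1 to 3, so EtOH replicate 2, lowest in all 3 Turandot genes, was the highest here, with para, a sodium channel gene, at 1128 CPM there and at 452 and 482 CPM in the other EtOH libraries. In bulk samples, fewer cells of a type and less RNA per cell cannot be told apart, and the part of the fat body, hemocyte, glial and neuronal differences in the Turandot result was not tested. Gut markers summed to 41.7, 11390 and 874 CPM in RU486 replicates 1 to 3 and to between 40.6 and 63.8 CPM in EtOH, so RU486 replicate 1 lay within the EtOH range. Of 9 measured members 2 were called higher, Amy-d and Amy-p. With 1 library dropped, Amy-d was called only without RU486 replicate 1 or 2, and Amy-p in all fits but those without EtOH replicate 1 or 3. The part of the gut markers in the Turandot result was not tested. Male reproductive tract markers stayed at or under 0.591 CPM in every library, and 8 of the 14 in the table had no count.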

How the data were processed

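Raw counts per gene were deposited by the authors for 17753 FlyBase identifiers and 6 libraries, as whole numbers with no normalisation, as the file's header and values show. Build BDGP6 comes from the submitters' processing notes, and the labels a stranded mRNA kit and 500 ng of RNA. For aligner, counter, strand setting and annotation, the sources used here give nothing. Symbols matched 17625 identifiers, and coordinates and exon lengths came from Ensembl release 115 (BDGP6.54). edgeR 4.0.16 in R 4.3.3 was run on the counts with filterByExpr (minimum count 10), TMM factors and its quasi-likelihood F test; p-values were adjusted by Benjamini and Hochberg's method across all 8945 genes tested. SE is the size of the log2 fold change over the square root of F. CPM used TMM factors. Sums, and ratios with 0.5 added to each count, were tested by exact permutation. Alternatives were other scalings, filters, DESeq2 1.42.0, limma-voom (limma 3.58.1), a robust prior, a replicate block and libraries left out. The fit was tested on simulated data. No pair of libraries of a group agreed within sampling noise. The members and lists were chosen with earlier results of these data known. Named genes were the members, the target, all called members of each list up to 4 with the smallest p, fixed JAK/STAT genes, Mekk1, Rel and pirk, and 5 genes per likeness measure. Neighbouring genes, elav, Syx1A, para and hemocyte, glial, gut and fat body genes were named after their values were seen.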

Additional observations from a re-analysis of the deposited data

How the results depend on the processing

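TotA, TotC, TotM and their sum kept their direction under every alternative run. TotM lost its call with the robust prior (log2 fold change 2.38) and with 1 library left out ranged from 1.91 to 2.88. TotA, not called with all libraries, passed with the replicate block (1.69, adjusted p = 0.00565) and, as TotC, with EtOH replicate 2 and RU486 replicate 2 both left out (1.30 and 1.64), and ranged from 1.13 to 2.02 with 1 library left out. TotC passed with the replicate block (2.19, adjusted p = 0.0214) and ranged from 1.40 to 2.73 with 1 library left out. TotM at 2.43 kept its call there. Same-numbered libraries share only a number in the labels, and their deviations from the group means correlated at 0.124, 0.269 and -0.0441, so the block was not used as the main fit; it called 872 genes, as did the DESeq2 Wald test. Of the 3 RU486 libraries, replicates 1 and 3 each deviated most like an EtOH library with another number. The number of genes called ranged from 341 to 1441 with 1 library left out and was 1394 with both named libraries left out. The 20 calls in the 7 pathway lists ranged from 9 to 27 with 1 library left out. The heat shock count was 3 with the robust prior and the replicate block and 4 with the DESeq2 Wald test, and the oxidative stress count was 1 with upper-quartile factors or no filter and 4 with the DESeq2 Wald test. The call of upd1 was lost with no filter (adjusted p = 0.0555), the robust prior (0.149) and the DESeq2 Wald test (0.208). The ratio of TotM to TotC ranged from -0.24 to 0.47 on the log2 scale with 1 library left out, -0.24 being without EtOH replicate 3. The causes were not tested. Depth limits TotM in EtOH replicate 2, with 13 counts, and the ligand genes, with 0 to 3 counts there.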
